A study of Mus musculus with 32 samples.

Results

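The 8 genes described here encode effectors that macrophages and their neighbours release or use in inflammation: Tnf, Nos2, Arg1, Saa1, Saa3, Ptgs2, Il12b and Il23a. They were taken by symbol, as the first name in the annotation column of both deposited count tables, and are 8 of the 24411 genes of the first table and of the 24421 of the second. The rule itself uses no measured value. Of the 8, 5 passed a filter on low values, which asked for 50 normalized reads or more in 3 or more libraries (Tnf, Nos2, Saa1, Saa3 and Ptgs2), whereas Arg1, Il12b and Il23a did not and are given by their counts. Normalized reads are counts per 10000000 mapped reads of a library.

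The study asked how monocytes become resident macrophages of the gut when their niche is emptied. Ly6C+ monocytes of Cx3cr1 GFP/+ CD45.1 donors were transferred into bone marrow (BM) chimeras on a C57BL/6J background, wild type mice that carried BM of CD11c-DTR donors (Itgax-DTR/GFP in the genotype label), in which the promoter of Itgax, the gene of CD11c, drives a receptor for diphtheria toxin (DTx). Recipients received DTx at 18 ng per g of body weight on 2 days before transfer and at 9 ng per g on days 1, 3, 5, 7 and 9, and graft-derived cells were sorted from the colon (3 libraries on day 4, 3 on day 8 and 4 on day 12) and from the ileum (4 on each day). The labels of these libraries give the gate DAPI- CD45+ CD11b+ CD64+ Ly6C- MHCII+, whereas the study describes a sort of graft-derived cells by CD45.1 and GFP. The untreated graft itself gave 3 libraries, labelled as blood where the study describes BM. A second set of 6 libraries holds graft-derived colonic macrophages of day 14 from BM chimeras in which the Cx3cr1 promoter drives the receptor (Cx3cr1-DTR in the labels, CX3CR1-DTR here), treated with DTx in the same way. Dates in the sample titles place the CD11c-DTR and graft libraries in 3 experiments. Nothing in the labels says which libraries came from separate animals, so p-values measure the spread between these libraries.

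TNF is the prototype inflammatory cytokine of macrophages and acts through a receptor present on most cells and a second receptor found mainly on immune and endothelial cells. Nos2 (inducible nitric oxide synthase) and Arg1 (arginase 1) compete for arginine, the first making nitric oxide and the second ornithine, and they serve as the classical pair of markers of opposed macrophage states. Saa1 and Saa3 are serum amyloid A proteins, acute phase proteins that carry lipid and retinol and attract leukocytes. In the gut Saa1 is known chiefly as a product of epithelial cells that meet adherent bacteria, whereas Saa3 is also made by macrophages. Ptgs2 (cyclooxygenase 2) is the inducible enzyme that starts the synthesis of prostaglandins, and Il12b and Il23a encode the p40 and p19 chains of interleukin (IL)-23, p40 being shared with IL-12.

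On mm9, the build of the files, Saa3 (chr7:53967368-53971046) and Saa1 (chr7:53995869-53998350) are neighbours on the minus strand, with 24822 bases between them. Tnf lies at chr17:35336312-35338952, Ptgs2 at chr1:151947161-151955364 and Nos2 at chr11:78734289-78773728, with Tnf on the minus strand and the other two on the plus strand. Arg1 (chr10:24635013-24647276) and Il23a (chr10:127733196-127735140) share a chromosome, and Il12b lies at chr11:44213565-44228179. Counts were taken over the exons of 1 RefSeq transcript per gene. RefSeq promoters on GRCm38.p6 were at hand for 5 of the 8 genes, from 250 bases before to 50 after the start of transcription. Those of Saa1, Saa3 and Ptgs2 are shown, because the neighbouring Saa genes differed in where they were high and Ptgs2 was the member that differed most between the recipient models. Capitals mark a match to the C/EBP core TTGCNNAA on either strand, C/EBP being a family of factors of the acute phase.

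Saa1, chr7:46742931-46743230 (minus strand): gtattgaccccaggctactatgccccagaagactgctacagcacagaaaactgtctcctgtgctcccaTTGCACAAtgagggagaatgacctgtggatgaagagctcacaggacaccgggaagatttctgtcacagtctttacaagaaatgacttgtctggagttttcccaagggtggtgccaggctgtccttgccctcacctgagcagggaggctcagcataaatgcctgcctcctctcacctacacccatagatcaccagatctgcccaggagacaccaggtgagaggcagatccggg
Saa3, chr7:46715627-46715926 (minus strand): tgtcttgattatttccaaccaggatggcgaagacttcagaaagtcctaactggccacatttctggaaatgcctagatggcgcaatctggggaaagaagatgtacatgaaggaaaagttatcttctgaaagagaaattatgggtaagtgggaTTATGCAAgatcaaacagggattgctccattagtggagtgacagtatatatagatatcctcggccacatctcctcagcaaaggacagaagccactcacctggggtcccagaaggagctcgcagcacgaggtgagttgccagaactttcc
Ptgs2, chr1:150099781-150100080 (plus strand): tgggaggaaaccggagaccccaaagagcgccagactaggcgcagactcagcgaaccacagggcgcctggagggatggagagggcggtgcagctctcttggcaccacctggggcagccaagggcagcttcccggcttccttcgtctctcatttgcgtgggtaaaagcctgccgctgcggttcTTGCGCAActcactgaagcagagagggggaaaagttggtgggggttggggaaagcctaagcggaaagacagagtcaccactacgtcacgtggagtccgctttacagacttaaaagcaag

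Each of the 3 windows holds 1 match, which begins at base -182 from the start of transcription in Saa1, -99 in Saa3 and -69 in Ptgs2. Of all 32851 promoters of the same length, 10.8% hold at least 1. The windows of Tnf and Il12b hold none. The AP-1 core TGANTCA (in 7.81% of promoters) and the NF-κB consensus (in 4.51%) have no match in any of the 5 windows, which says only that these letters are not there.

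Depth on genes ranged from 591817 to 5228664 counts in the graft and CD11c-DTR libraries and from 1223772 to 4218027 in the CX3CR1-DTR libraries. The limit that a count of 0 allows, 3 counts, equals 3.51 to 27.6 normalized reads, and these limits cover counting error only. Of the 12 genes of a macrophage list at least 11 were over that limit in every engrafted CD11c-DTR library, summing to 4766 to 27477 normalized reads in colon and 12257 to 134121 in ileum. The 16 genes of an epithelial list summed to 40.7 to 67.4 in the graft, to 137166 to 199300 in colon and to 24845 to 167177 in ileum, so that epithelial markers were above macrophage markers in all 10 colonic libraries of the tests. A further colon day 8 library (replicate 1), which the study left out, had the opposite order and entered 1 alternative fit only. Ileum day 4 replicates 2 and 3, the only ones of experiment 1 in that group, held 167177 and 157641, as much as colon, where the other two ileum day 4 libraries held 37375 and 48849. Since these are bulk samples, a lower level of a gene may mean fewer cells of a type or less RNA per cell, which cannot be told apart.

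**Figure D1:**
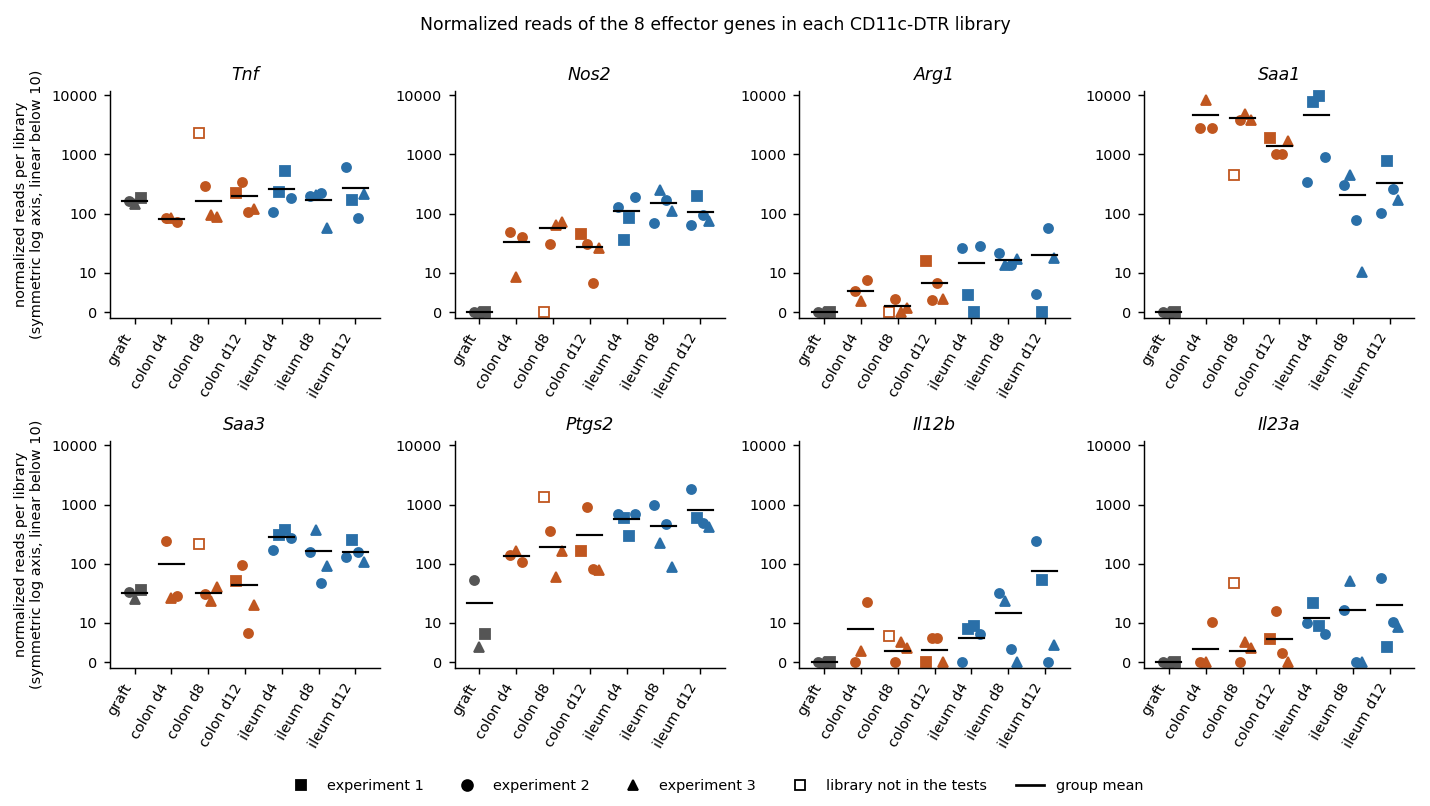
Normalized reads (vertical, symmetric log axis that is linear below 10) of the 8 genes in each graft, colonic and ileal library of the CD11c-DTR transfers, with squares, circles and triangles for experiments 1, 2 and 3, black lines for group means and an open square for a colon day 8 library that enters none of the main tests. Saa1 spans 10.2 to 9852 in ileum, Tnf lies on both sides of the graft (145 to 182), and Arg1, Il12b and Il23a lie near 0 in most libraries.

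Members were tested with edgeR's quasi-likelihood test, with Benjamini-Hochberg adjustment over all 11842 genes tested and a threshold of 0.05. Against the graft, 4 of the 5 tested members passed in colon on day 4, where 60.4% of all genes tested passed, and 3 of 5 in colon on day 8 (59.1% of all genes) and on day 12 (62.6%). In ileum 4 of 5 passed on day 4 (56.7% of all genes), day 8 (53.9%) and day 12 (55.9%). All of these calls were rises. With more than 1 in 2 genes called in every such comparison, the counts of members do not set them apart from other genes, and the comparisons share the graft libraries. Between consecutive days no member passed in colon from day 4 to day 8 or from day 8 to day 12 (0% of all genes in both, with 204 and 329 genes at an unadjusted p under 0.05), and none in ileum from day 8 to day 12 (0%, with 796 genes). In ileum 1 of 5 (Saa1) passed from day 4 to day 8, where 5.13% of all genes did.

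In CD11c-DTR recipients Tnf did not pass against the graft on day 4, 8 or 12 in either segment. Its normalized reads were 166, 145 and 182 in the graft. In colon they were 84.2, 86.0 and 73.2 on day 4, then 297, 96.6 and 88.9 on day 8, and 219.9, 339, 105 and 120.4 on day 12. Colon day 4 thus lay below all graft libraries, while the later colonic libraries spread to both sides of them. In ileum the values were 106, 233, 516 and 185 on day 4, then 198, 206, 221 and 57.8 on day 8, and 625, 169, 83.2 and 217 on day 12. Ileal libraries of day 12 spread from 83.2 to 625, which spans the range of all group means (81.1 to 274) but for its lower end. On the log2 scale the difference from the graft was -0.68 ± 0.64 (SE, n = 3 and 3) in colon on day 4 (adjusted p = 0.370), 0.17 ± 0.63 on day 8 (0.827) and 0.55 ± 0.59 on day 12 (0.425). In ileum it was 1.07 ± 0.61 (adjusted p = 0.139), 0.55 ± 0.59 (0.453) and 1.26 ± 0.59 (0.0744), and without ileum day 12 replicate 3 the last passed (1.58, adjusted p = 0.0241). Set against macrophage markers instead of all mapped reads, there were 1.502 to 2.59 Tnf reads per 1000 macrophage marker reads in the graft, 6.55 to 19.9 in colonic libraries and 2.29 to 19.0 in ileal ones. Per marker read, all colonic libraries lay above the graft, an order that the normalized reads did not show. The marker sum that divides Tnf here was itself lower in colon (4766 to 27477 normalized reads) than in the graft (70153 to 96780). Its members did not move together, since in colon on day 4, of 11 tested, 3 were higher and 8 lower than in the graft.

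Nos2 was absent from the graft and present in every engrafted library of the main tests. The graft had 0 counts in its 3 libraries, with a mean limit of 7.17 normalized reads. Colonic libraries held 48.4, 8.89 and 40.7 normalized reads on day 4, then 30.4, 65.2 and 72.6 on day 8, and 44.8, 31.14, 7.31 and 26.4 on day 12. Ileal libraries held 129, 36.3, 82.9 and 193 on day 4, then 70.5, 249.5, 167 and 112 on day 8, and 63.4, 195, 93.6 and 73.9 on day 12. No engrafted group overlapped with the graft, and group means were at least 4.56-fold, 7.82-fold and 3.82-fold higher than it in colon and at least 15.4-fold, 20.9-fold and 14.9-fold higher in ileum. The adjusted p was between 5.81e-07 and 0.000145 in the 6 comparisons with the graft. Per 1000 macrophage marker reads Nos2 had 0.754 to 11.9 reads in colon and 0.473 to 6.09 in ileum.

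Arg1, the other user of arginine, was sparse. It had 0 counts in the graft, at most 8 counts in any colonic library and at most 12 in any ileal library other than ileum day 12 replicate 3, which had 22 (57.2 normalized reads). Group means were 1.52 to 7.32 normalized reads in colon and 14.8 to 19.9 in ileum. Ileum day 8 was the only ileal group in which all 4 libraries held Arg1 (21.7, 13.5, 13.4 and 17.0), and these lay above the colon day 8 libraries (3.38, 0 and 1.17). In a fit with no filter on low counts this difference passed (adjusted p = 0.0269), on 2 counts in colon and 21 in ileum.

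Saa1 was at 0 in the 3 graft libraries and was high in all colonic libraries, which held 2799.8, 8469.9 and 2751 normalized reads on day 4, then 3863, 4804 and 3859 on day 8, and 1866, 1021, 1034 and 1704 on day 12. All colon day 12 libraries lay below those of day 8, although the difference did not pass (-1.48 ± 0.87 on the log2 scale, adjusted p = 1). Ileum day 4 split by experiment, with 7641 and 9852 in the 2 libraries of experiment 1 and 347 and 920.1 in those of experiment 2. Ileal levels were then 306, 445, 77.0 and 10.2 on day 8 and 102, 789, 265 and 172 on day 12, with the lowest value in ileum day 8 replicate 4. Means were at least 652-fold, 583-fold and 196-fold higher than the graft in colon and at least 654-fold, 29.3-fold and 46.3-fold higher in ileum, with adjusted p between 3.06e-06 and 0.000394.

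From day 4 to day 8 Saa1 fell in ileum by 4.53 ± 0.95 on the log2 scale (adjusted p = 0.0116). That call rested on the 2 libraries of experiment 1. It was lost with the experiment as a block (-2.70, adjusted p = 0.217), with ileum day 4 libraries of experiment 2 alone (-1.47, 0.604), without ileum day 4 replicate 2 (-4.25, 0.0829) and with the 2 groups fitted alone (-4.53, 0.314). The 2 libraries in question are those in which epithelial markers were at colonic levels, and 5 of 16 epithelial markers also fell from day 4 to day 8 while none rose.

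The plot of Saa1 against epithelial markers sets both side by side in each library. Per 1000 epithelial marker reads there were 13.8 to 47.2 Saa1 reads in colon on day 4, 20.5 to 24.5 on day 8 and 5.36 to 10.8 on day 12. In ileum the values were 9.28 to 62.5, then 0.241 to 10.3, and 3.87 to 12.6. Colon and ileum overlapped on this scale on days 4 and 12 and did not on day 8. The part of epithelial RNA in the Saa1 counts was not tested. Saa2, a near-identical neighbour listed as a gene of its own, had 0 to 179 normalized reads in engrafted libraries, and how reads were split between the pair is uncertain, since only reads that map to 1 place were kept.

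**Figure D2:**
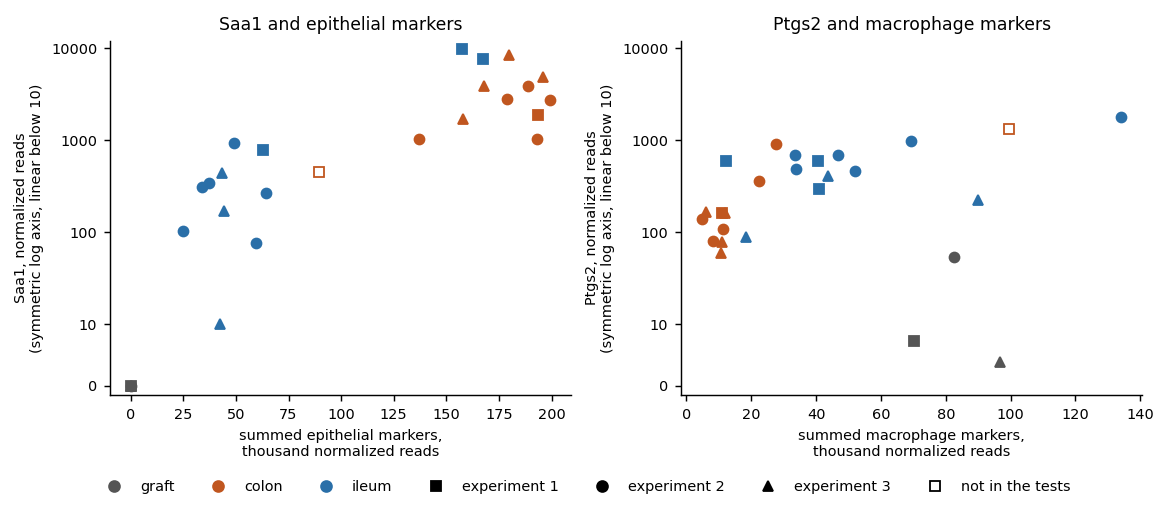
Left, Saa1 against the summed epithelial markers and right, Ptgs2 against the summed macrophage markers in each library (vertical, normalized reads on a symmetric log axis that is linear below 10; horizontal, normalized reads divided by 1000), with grey for the graft, orange for colon, blue for ileum and symbols for experiments 1 to 3. Ileum day 4 replicates 2 and 3 (7641 and 9852 reads of Saa1) lie among the colonic libraries, and the graft has macrophage markers (70153 to 96780) but little Ptgs2 (3.88 to 53.3).

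Saa3, the neighbour of Saa1, followed another course. The graft held 33.7, 25.2 and 36.3 normalized reads, and most colonic libraries stayed there: 240.2, 26.7 and 28.5 on day 4, then 30.4, 23.5 and 41.0 on day 8, and 50.6, 96.5, 7.31 and 19.8 on day 12. In ileum it stood at 168, 305, 369 and 271 on day 4, then 157, 371, 46.9 and 91.8 on day 8, and 131, 248, 156 and 108 on day 12. All ileal libraries were above all graft libraries, and 8 of the 10 colonic libraries were below every ileal library but ileum day 8 replicate 3. Saa3 passed against the graft in ileum on day 4 (3.55 ± 0.76 on the log2 scale, adjusted p = 0.000370), day 8 (2.87 ± 0.75, 0.00233) and day 12 (2.77 ± 0.74, 0.00284). The call in colon on day 4 (1.94 ± 0.76, adjusted p = 0.0314) came from replicate 1, and without that library the difference was 0.19 (adjusted p = 0.856).

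In CD11c-DTR recipients Ptgs2 rose over the graft in both segments on days 4, 8 and 12. It had 53.3, 3.88 and 7.27 normalized reads in the graft, of which replicate 1 was the highest. In colon it had 139.8, 163 and 108 on day 4, then 358, 60.02 and 166 on day 8, and 163, 899.9, 80.4 and 79.2 on day 12. In ileum it had 690.0, 589, 295 and 685 on day 4, then 971, 222, 465 and 88.4 on day 8, and 1802, 586, 489 and 411 on day 12. All 22 engrafted CD11c-DTR libraries lay above every graft library. The rise over the graft was 3.106 ± 1.06 on the log2 scale in colon on day 4 (adjusted p = 0.0145), 3.50 ± 1.06 on day 8 (0.00661) and 4.21 ± 1.04 on day 12 (0.00117), and in ileum 5.24 ± 1.06 (0.000212), 4.95 ± 1.05 (0.000367) and 5.85 ± 1.08 (7.04e-05). The colon day 4 call was lost without graft replicate 2 (2.53, adjusted p = 0.0716) or 3 (2.71, 0.0622). Its highest library, ileum day 12 replicate 1, also had the most macrophage marker reads of all libraries (134121) and the fewest epithelial ones of the engrafted libraries (24845). Per 1000 macrophage marker reads Ptgs2 stood at 0.0400 to 0.647 reads in the graft, 5.58 to 32.8 in colon and 2.48 to 48.1 in ileum. The marker sum itself was 70153 to 96780 normalized reads in the graft, 4766 to 27477 in colon and 12257 to 134121 in ileum.

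Il12b and Il23a were close to the limit of detection nearly everywhere. Both had 0 counts in the graft. Il12b reached 240.0 normalized reads (106 counts) in ileum day 12 replicate 1 and 52.6 (14 counts) in replicate 2, whereas the other two libraries of that group held 0 and 3 counts. Elsewhere it had at most 12 counts. Il23a was likewise highest in ileum day 12 replicate 1 (56.6 normalized reads, 25 counts), followed by ileum day 8 replicate 2 (50.6, 15 counts). The library with the most Il12b and Il23a thus also had the most Tnf (625) and the most Ptgs2 (1802) of the 25 libraries tested, but the least Nos2 of its group (63.4). With no filter on low counts, Il12b was lower in colon than in ileum on day 12 (-4.58 ± 1.24 on the log2 scale, adjusted p = 0.00877), a value to which that library contributed 106 of 123 ileal counts.

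Colonic and ileal macrophages were then compared on each day. On day 4 none of the 5 tested members passed, against 3.18% of all genes, and with DESeq2 2 did (Tnf, adjusted p = 0.0404, and Nos2, 0.0378). On day 8, 3 of 5 passed, against 35.0% of all genes, and on day 12, 2 of 5, against 32.5%. Nos2 was lower in colon on day 8 (-1.63 ± 0.56 on the log2 scale, adjusted p = 0.0286) and day 12 (-2.10 ± 0.54, 0.00545), with overlap of libraries on day 8 and none on day 12. The day 8 call was lost with library totals (adjusted p = 0.0802) and without colon day 8 replicate 2, 3 or 4 or ileum day 8 replicate 2 (0.0501 to 0.108). Saa3 was lower in colon on both days as well (-2.56 ± 0.73, 0.00963, and -2.13 ± 0.64, 0.0145), with no overlap. These calls were lost with all 4 colon day 8 libraries (-1.33, adjusted p = 0.216) and without colon day 12 replicate 3 (-1.74, 0.0544), respectively. Saa1 had the opposite sign. It was higher in colon on day 8 (4.12 ± 0.95, adjusted p = 0.00278) and did not pass on day 12 (2.03 ± 0.85, 0.0732), although no libraries overlapped on either day, and with the experiment as a block the day 12 difference passed (2.47, adjusted p = 0.00836).

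**Figure D3:**
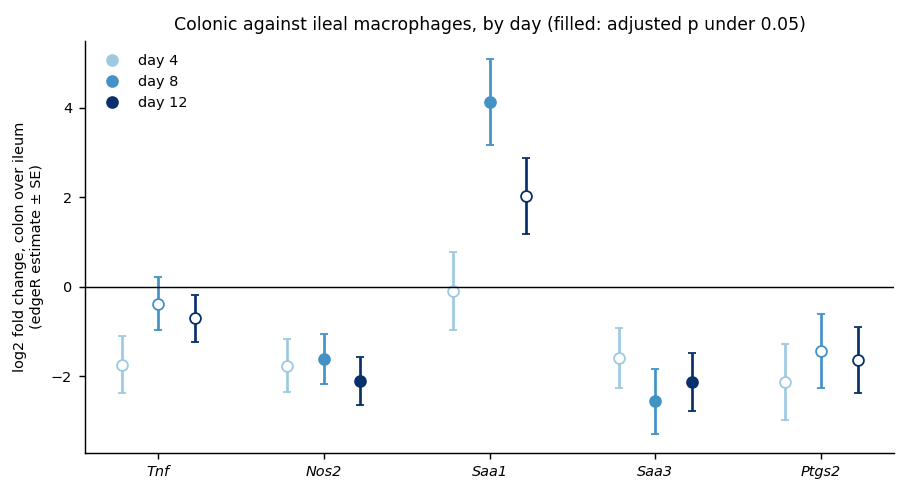
Log2 fold change of colon over ileum (edgeR estimate, bars ± SE) for the 5 tested members on days 4, 8 and 12, filled where the adjusted p was under 0.05. Saa1 stands above 0 on days 8 and 12 (4.12 and 2.03), and Tnf, Nos2, Saa3 and Ptgs2 lie below 0 on all 3 days.

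Ptgs2 was lower in colon on all 3 days and did not pass on any (-2.13 ± 0.86, -1.44 ± 0.83 and -1.64 ± 0.74, adjusted p = 0.145, 0.182 and 0.0931), and Tnf behaved alike (-1.75 ± 0.64, -0.38 ± 0.60 and -0.71 ± 0.53, adjusted p = 0.109, 0.658 and 0.332). With the experiment as a block Ptgs2 passed on day 12 (-1.80, adjusted p = 0.0244), as it did without colon day 12 replicate 2 (-3.13, 0.00284), its highest colonic library. Within experiments the order held for Nos2, Saa3 and Ptgs2, whose colonic mean was below the ileal mean in all 6 pairs of an experiment and a day that hold both segments. For Nos2 these pairs were 44.5 against 161 on day 4, 30.4 against 119 and 68.9 against 181 on day 8, and 44.8 against 195, 19.2 against 78.5 and 26.4 against 73.9 on day 12. Saa1 was higher in colon in all 6 pairs, day 4 included, where experiment 2 alone gives 2776 in colon and 633 in ileum. The same libraries fitted alone for ileum day 4 gave a Saa1 difference of 2.95 (adjusted p = 0.0196), where all 4 gave -0.10 (0.967). Tnf was lower in colon in 4 of the 6. Per macrophage marker read, Tnf was instead higher in colon on day 8 and day 12, as given below.

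These differences stood beside differences in the makeup of the libraries. On day 12 all 11 tested macrophage markers were lower in colon than in ileum, with a median log2 difference of -2.11. Of 16 epithelial markers 14 were higher and 1 was lower, with a median of 1.65, where the median of all genes was -0.01. On day 8, 10 of 11 macrophage markers were lower (median -1.999), and of 16 epithelial markers 11 were higher and 2 lower (1.79). Nos2 and Saa3 thus differed by about as much as the macrophage markers did. Per 1000 macrophage marker reads both overlapped between segments on days 8 and 12. On that scale Tnf was higher in colon on both days, without overlap. It stood at 8.97 to 14.5 in colon and 2.29 to 4.25 in ileum on day 8. On day 12 it stood at 11.1 to 19.9 and 2.47 to 4.98. On day 4 the segments overlapped (6.55 to 17.7 in colon and 3.16 to 19.0 in ileum). The part of the macrophage, epithelial and following markers in the differences was not tested. All 4 tested B cell and plasma cell markers were also lower in colon on both days, and over all 3 days the markers of that list summed to 664 to 8485 normalized reads in colon and 3336 to 141922 in ileum. So were all 3 tested T cell markers (medians of -3.25 and -3.35 on days 8 and 12), and 3 and 4 of 7 neutrophil markers (medians of -2.87 and -3.00), of which 1 was higher on each day. No member differed between the segments in its change from day 4 to day 12 (0 of 5, against 0% of all genes, with 739 genes at an unadjusted p under 0.05), the largest being Saa1 (-2.13 ± 1.22, adjusted p = 0.850).

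In CX3CR1-DTR recipients the comparison asked whether colonic macrophages look alike when another promoter drives the receptor. Here reads were scaled to 10000000 reads on genes, over 13 libraries and 11751 genes. Of the 5 tested members 4 passed against the graft, where 75.4% of all genes did, and 3 against colon day 12 of CD11c-DTR recipients, where 60.8% did. Recipient model, day, table and sequencing are the same split in these comparisons and cannot be told apart. The share of called genes shows how far the 2 tables stood apart.

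Saa1 had 4110.2, 5697, 4122, 9653, 7018 and 8387 reads per 10000000 on genes in the 6 CX3CR1-DTR libraries and 2733, 1734, 1844 and 3027 in colon day 12. All of the former were above all of the latter, and the difference was 1.46 ± 0.29 on the log2 scale (adjusted p = 0.000853). Per 1000 epithelial marker reads Saa1 stood at 14.2 to 31.8 in CX3CR1-DTR libraries and at 5.36 to 10.8 in colon day 12. The 2 groups did not overlap on that scale either. The earlier colonic groups of CD11c-DTR recipients did overlap with the CX3CR1-DTR libraries. They held 4385 to 14637 reads per 10000000 on genes on day 4 and 5993 to 7262 on day 8. Per 1000 epithelial marker reads they stood at 13.8 to 47.2 and 20.5 to 24.5.

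Tnf was at 57.2, 92.2, 211, 79.8, 75.9 and 36.4, against 322, 576, 187 and 214 in colon day 12 and 241, 206 and 264 in the graft. Against colon day 12 its log2 difference was -1.84 ± 0.41 (adjusted p = 0.00127) and against the graft -1.10 ± 0.44 (0.0351), and replicate 3 of the CX3CR1-DTR libraries overlapped with both. Between CX3CR1-DTR libraries and colon day 12, 5 of 11 macrophage markers were lower and 1 higher (median -0.81), 4 of 5 fibroblast markers were lower (median -2.02), and 3 of 15 epithelial markers were lower and 1 higher (median -0.23). The part of these markers in the differences of Tnf and Ptgs2 was not tested. The Tnf call against the graft was lost with the 2 groups alone (adjusted p = 0.0514) and without any single graft library or CX3CR1-DTR replicate 2, 4 or 5 (0.0536 to 0.0853). Nos2 was at 131, 26.4, 54.5, 88.3, 45.0 and 146, at least 7.90-fold above the graft (adjusted p = 9.06e-05), and its difference from colon day 12 (0.87 ± 0.54, 0.180) did not pass. Saa3 (27.3 to 74.7) passed against neither.

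Ptgs2 was nearly missing from the CX3CR1-DTR libraries. It had 2 counts in replicate 5 and 0 in the other five, where colon day 12 had 239, 1528, 143 and 141 reads per 10000000 on genes and the graft 77.6, 5.496 and 10.6. From the counts (2 and 487) colon day 12 was 270.3 times as high, with an exact 95% counting interval of 74.4 to 2238, and the graft (24 counts) was 20.0 times as high, with an interval of 4.97 to 175. These intervals cover counting error over pooled libraries, not the spread between them. Colon day 12 replicate 2 gave 289 of the 487 counts, and without it the ratio was 128 (35.0 to 1064). Graft replicate 1 gave 19 of the 24 counts, and without it the ratio was 5.75 (0.941 to 60.4), while without graft replicate 2 it was 31.0. Leaving out libraries from these ratios was chosen after seeing the data. The adjusted p was 2.35e-05 against colon day 12. Against the graft it was 0.0392 and missed the threshold when any single CX3CR1-DTR library or graft replicate 1 was left out (0.0557 to 0.352), and with limma (0.335).

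Other genes were low in the same table, including some that every cell uses. Gapdh, a glycolytic enzyme, had 74.9 to 173 reads per 10000000 on genes in the CX3CR1-DTR libraries, 1855 to 2643 in colon day 12 and 1250.2 to 1753 in the graft, whereas Actb (cytoskeletal actin) had 32858 to 94732, 34207 to 47000 and 85436 to 87019. Ptges3, a co-chaperone that also acts as a prostaglandin E synthase, had 1 to 16 counts per CX3CR1-DTR library and 117 to 325 in the graft. Of the 6244 genes with at least 100 reads per 10000000 on genes in all 7 graft and colon day 12 libraries, 58 (0.929%) had at most 3 counts in each of the 6 CX3CR1-DTR libraries. Gapdh and Actb were chosen after their values were seen. Whether the loss of Ptgs2 counts is of the same kind was not tested.

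**Figure D4:**
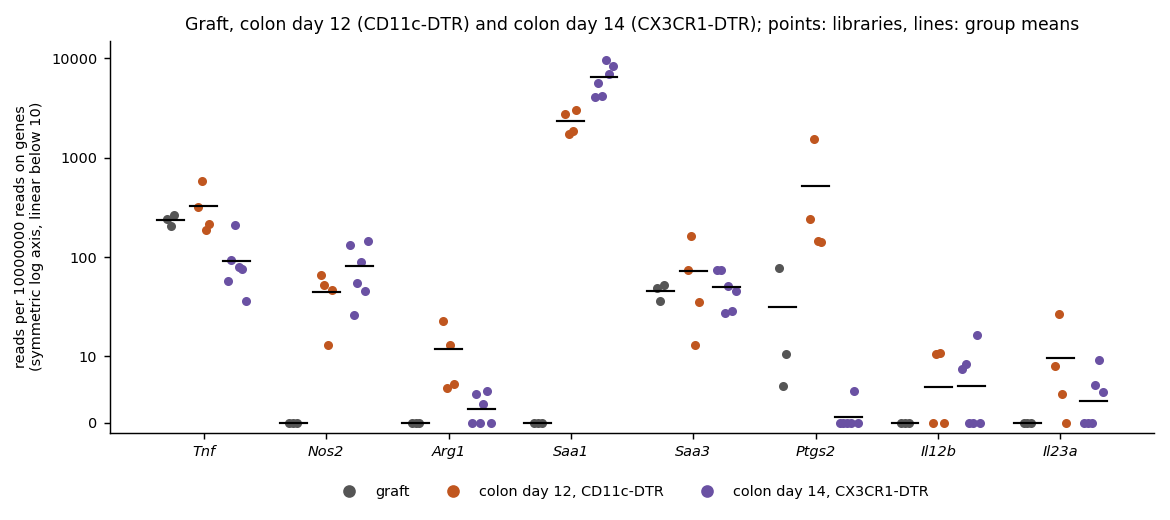
Reads per 10000000 reads on genes (symmetric log axis that is linear below 10) of the 8 genes in the graft (grey, 3 libraries), colon day 12 of CD11c-DTR recipients (orange, 4) and colon day 14 of CX3CR1-DTR recipients (purple, 6), with lines for group means. Among the groups shown, Saa1 is highest in the CX3CR1-DTR libraries (4110.2 to 9653), and Ptgs2 is at 0 in 5 of those 6.

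Of Arg1, Il12b and Il23a the CX3CR1-DTR libraries held 0 to 2, 0 to 7 and 0 to 4 counts. Arg1 values lay below those of colon day 12 (22.8, 5.29, 13 and 5.86 reads per 10000000 on genes), on 4 counts in all against 17. In the CX3CR1-DTR libraries 3 counts equal 7.11 to 24.5 on this scale, so the order rests on few counts. With no filter on low counts the difference was -2.11 ± 0.76 on the log2 scale (adjusted p = 0.0326). In the filtered fit 60.8% of all genes were called in this comparison, and recipient model, day, table and sequencing cannot be told apart.

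The other genes of each pathway were read from lists of 10 TNF, 10 arginine, 7 serum amyloid A, 14 prostanoid and 10 IL-12 family genes. Among 10 tested prostanoid genes 2 were higher and 5 lower in colon than in ileum on days 8 and 12, where 35.0% and 32.5% of all genes were called, with a median log2 difference of -1.02 on day 12 (-0.01 over all genes). Ptgs1 (cyclooxygenase 1), the constitutive partner of Ptgs2, was lower in colon on all 3 days (-2.56 ± 0.51, -3.09 ± 0.52 and -2.21 ± 0.44, adjusted p = 0.0267, 0.000266 and 0.000985), while Hpgd, which inactivates prostaglandins, was higher on days 8 and 12 (2.01 ± 0.32 and 1.42 ± 0.30, 0.000212 and 0.00137). Ptges3 did not pass between the segments. On days 8 and 12 the median log2 difference was -1.999 and -2.11 for macrophage markers and 1.785 and 1.65 for epithelial markers. The part of these markers in the differences of Ptgs1 and Hpgd was not tested. Against colon day 12, 9 of 12 tested prostanoid genes were lower in CX3CR1-DTR libraries, Ptgs1 (-3.93 ± 0.47), Hpgd (-4.36 ± 0.47) and Ptges3 (-5.26 ± 0.47) among them, and 2 were higher, where 60.8% of all genes were called. Ptges3 was given above among the genes low in that table. Recipient model, day, table and sequencing are the same split here too and cannot be told apart.

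Of the 9 tested TNF pathway genes 1 was higher and 4 were lower in colon on day 12, the comparison in which 32.5% of all genes and all 11 macrophage markers were called. Tnfrsf1a, the broadly expressed TNF receptor, was lower than in the graft in every engrafted group (-2.14 to -1.22 on the log2 scale) and lower in colon than in ileum on day 12 (-0.88 ± 0.21, adjusted p = 0.00312). Tradd, an adaptor of that receptor, was higher in colon on day 12 (1.30 ± 0.35, 0.00699). Zfp36, which destabilizes Tnf mRNA, did not pass against the graft in any engrafted CD11c-DTR group but was lower in CX3CR1-DTR libraries than in colon day 12 (-3.57 ± 0.46, 1.26e-05). In that comparison 60.8% of all genes were called, and recipient model, day, table and sequencing cannot be told apart.

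Of 9 tested arginine genes none was higher and 2 were lower in colon on day 12, a smaller share than the 32.5% of all genes. Odc1, which turns ornithine into polyamine, was above the graft in all engrafted CD11c-DTR groups (2.80 to 3.34 on the log2 scale), as was Spr, which makes the cofactor of nitric oxide synthases (0.73 to 1.43). Oat, which consumes ornithine, was lower in colon than in ileum on days 8 and 12 (-0.86 ± 0.31 and -1.15 ± 0.29, adjusted p = 0.0364 and 0.00427). Of 5 tested serum amyloid A genes 3 were lower in colon on day 12 (32.5% of all genes were called). Scarb1 and Cd36, both scavenger receptors that bind serum amyloid A, were among them (-1.29 ± 0.37 and -1.43 ± 0.51, 0.0106 and 0.0343), and Tlr2, a receptor for bacterial lipoproteins, was not (-0.43 ± 0.37, 0.409) but was below the graft in all engrafted CD11c-DTR groups (-3.49 to -2.39). In the IL-12 family 5 of 6 tested genes were lower in colon on day 12, with Il6st (the shared gp130 chain, -1.24 ± 0.33, adjusted p = 0.00604) and Jak2 (-0.66 ± 0.23, 0.0328) but not Tyk2 (-0.49 ± 0.26, 0.167), the last 2 being kinases of the IL-12 and IL-23 receptors. In that comparison 32.5% of all genes, all 11 macrophage markers and all 3 T cell markers were called, the markers all lower in colon.

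For each tested member the 3 genes with the most similar course were taken by Pearson's r of log2(normalized reads + 50) over the 22 engrafted CD11c-DTR libraries. These values describe libraries that share segment, experiment and makeup. Those nearest to Tnf were Cxcl2, a neutrophil chemokine (0.887), Trim25 (0.885) and Nlrp3, an inflammasome sensor (0.858), with r of 0.828 to 0.951 within colon or ileum alone. Nearest to Saa1 were Rdh16 (0.951), Aqp8, a water channel of colonic epithelium (0.949), and Ceacam20 (0.945), with 0.566 to 0.891 within colon and 0.943 to 0.978 within ileum. Ptgs2 was nearest to Ptprc, which encodes CD45 (0.926), Ms4a6b (0.919) and Il1b (0.916), with 0.868 to 0.889 within colon and 0.870 to 0.908 within ileum. Nos2 was nearest to Abcg8 (0.854), Git2 (0.850) and Cyp26b1 (0.842), and Saa3 to Stag1 (0.806), Arid4a (0.791) and Armc7 (0.788). For Nos2 r ran from 0.415 to 0.740 within colon and from 0.692 to 0.769 within ileum. For Saa3 it ran from 0.346 to 0.578 within colon and from 0.477 to 0.783 within ileum.

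Ordered by group means over the graft and CD11c-DTR groups, Nos2, Saa3 and Ptgs2 had their 3 highest means in the 3 ileal groups, and all neighbours in those orders overlapped except at the step down to the graft for Nos2 and Ptgs2. Tnf ran from ileum day 12 (274 ± 241, SD, n = 4) to colon day 4 (81.1 ± 6.93, n = 3), and only the last step, from colon day 8, was free of overlap. In Saa1 ileum day 4 (4689.9 ± 4776), colon day 4 (4674 ± 3288, n = 3) and colon day 8 (4175 ± 545, n = 3) overlapped, and colon day 12 (1406 ± 442) was apart from both colon day 8 above and ileum day 12 (332 ± 312) below.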

How the data were processed

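RNA of sorted cells had been sequenced as 3′ end libraries in a modified MARS-seq protocol. According to the methods and the submitters' processing notes, reads were aligned to mm9 with HISAT 0.1.6 and uniquely mapping reads were kept. The values deposited by the authors are raw counts of sense reads on exons per gene, made with HOMER, with no normalization. Whether molecular identifiers were collapsed is not given in the sources used here. Beside the 6 CX3CR1-DTR columns, 52 columns of no listed sample were not used. Counts were scaled to 10000000 mapped reads, or to reads on genes where CX3CR1-DTR libraries were compared, because that table gives no totals.

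Tests used edgeR 4.0.16 in R 4.3.3 (TMM, quasi-likelihood, Benjamini-Hochberg adjustment, threshold 0.05) in 1 fit of 7 groups and 25 libraries and a second fit of 13 libraries. Standard errors were taken from the log2 fold change and the F statistic. The script was tested on simulated counts. Alternatives used RLE size factors, library totals, no filter, DESeq2 1.42.0, limma 3.58.1 on log2(normalized reads + 50), compared groups alone, each library left out in turn, and the experiment as a block. Colon day 8 replicate 1, which the study left out, entered 1 alternative only. Replicates are numbered in accession order, and experiments come from dates in the titles, 1 of which was read as a slip of the year. Deviations from group means correlated on average by 0.016 between libraries of the same experiment (96 pairs) and -0.0095 between experiments (171 pairs), and pairing therefore rests on the dates. No 2 libraries of a group were alike within sampling noise (51 pairs, chi-square per degree of freedom at least 4.73).

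The members and all gene lists were chosen with earlier results of these data known. Genes named by rule are the 8 members, the 3 genes of each pathway list with the highest mean normalized reads, and the 3 genes nearest to each tested member. Outside that rule, Saa2 was named as the neighbour of Saa1, and Gapdh and Actb were chosen after their values were seen. Figures were drawn with matplotlib 3.10.9 from tables made with pandas 2.3.3, numpy 2.4.6 and scipy 1.17.1 in python 3.11.15. For CX3CR1-DTR recipients day 14 comes from the study's list of samples, which gives fewer repeats than the 6 libraries used. Protein sequences were not used here.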

Additional observations from a re-analysis of the deposited data

Results flagged for a closer look

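Colon day 8 replicate 1 was left out by the study and entered no comparison above. It held 2348 normalized reads of Tnf, the highest of all libraries, where the graft had at most 182, and 1335 of Ptgs2 against at most 53.3. Saa1 stood at 456 against 0 in the graft, below the other three colon day 8 libraries, Saa3 at 215 against at most 36.3, and Il23a at 47.0 (7 counts) against 0. Nos2 had 0 counts in it. Its macrophage markers summed to 99394 normalized reads, where the other colonic libraries had at most 27477, and its epithelial markers to 89578, where the others had at least 137166.

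In 38 groups of 4 or 6 libraries, each a member in a group of samples, the most extreme library was tested for its distance from the rest, and 5 were set apart. The rule flags about 1 in 20 groups of independent, normally distributed values. These groups share libraries and hold scaled counts, so that rate need not hold here. Ileum day 12 replicate 1 was high in Ptgs2 (1802 normalized reads, with 586 in the next) and in Il23a (56.6, with 10.4 in the next). Colon day 12 replicate 2 was high in Ptgs2 (899.9, next 163), ileum day 8 replicate 4 was low in Tnf (57.8, next 198), and CX3CR1-DTR replicate 3 was high in Tnf (211 reads per 10000000 on genes, next 92.2). Ptgs2 lay below the graft mean of 31.2 reads per 10000000 on genes in all 6 CX3CR1-DTR libraries and above it in all 4 colon day 12 libraries, and the direct comparison of these 2 groups is the one given above.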

How the results depend on the processing

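The count of members past the threshold stayed within 1.5 times its value under all alternatives in 9 of the 16 comparisons. With the compared groups alone it was 2 in place of 4 for colon day 4 and for CX3CR1-DTR against the graft. With limma it was 1 in place of 4 for colon day 4 against the graft and 4 in place of 2 for colon against ileum on day 12. With the experiment as a replicate block it was 4 in the latter, and 0 in place of 1 for ileum day 8 against day 4, which was also 0 with the 2 groups alone and with ileum day 4 libraries of experiment 2 alone. The block changed no other count by over 1.5 times. For colon against ileum on day 4 it was 2 in place of 0 with DESeq2 and with experiment 2 alone. With no filter, which adds 3 members, 7 in place of 4 passed in ileum against the graft on days 8 and 12.

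Leaving out each library in turn gave 2 to 4 members for colon day 4 and for CX3CR1-DTR against the graft, 0 to 1 for ileum day 8 against day 4 and for colon against ileum on day 4, and 1 to 3 for colon against ileum on day 12. Nos2 missed the threshold with limma in colon against the graft on days 4 and 12 (0.0902 and 0.107).

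Direction turned in a few values, none of which had passed. Tnf in colon day 8 against the graft was -0.060 with library totals and -0.15 with limma, ran from -0.55 (without colon day 8 replicate 2) to 0.46 when single libraries were left out, and was 2.65 (adjusted p = 0.0190) with all 4 colon day 8 libraries. In ileum day 8 against the graft it was -0.043 with limma. Between colon and ileum Tnf was 2.09 and Ptgs2 0.11 on day 8 with all 4 colon day 8 libraries, and Tnf on day 12 ran from -1.10 to 0.13 when single libraries were left out, the latter without ileum day 12 replicate 1. Saa1 on day 4 was 1.64 with the block, 2.95 with experiment 2 alone, 0.81 with limma, -0.98 without colon day 4 replicate 2, 0.20 and 0.19 without colon day 4 replicate 1 or 3, and 0.17 and 0.67 without ileum day 4 replicate 2 or 3. The cause of these changes was not tested. On the scale of reads on genes the group with the highest mean was the same for all 8 members. Depth limits Arg1, Il12b and Il23a most, for which 3 counts equal up to 27.6 normalized reads.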
